A study of Mus musculus with 6 samples.

Results

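The Notch receptor gene Notch1, the Delta ligand genes Dll1 and Dll3, the Hes repressor genes Hes1 and Hes5 and the proneural and neuronal bHLH genes Neurog1, Neurog2, Neurod1 and Neurod4 were followed across microarrays of sorted embryonic mouse spinal cord cells. Every probe of these 9 genes, named through its RefSeq accession, was taken, which gave 12 probes, out of 19895 genes that could be named on the array. Notch1, Dll3 and Neurod1 had a pair of probes each, called brighter and dimmer here by their mean signal, and the other members had 1. The cells came from E12.5 embryos that all carried the Hb9::GFP reporter, whose Hb9 promoter is active in spinal motor neurons. They were sorted by flow cytometry into GFP-on cells (motor neurons) and GFP-off cells (non-motor neurons), so the second fraction holds every other cell type of the dissociated cord. The 4 groups were motor neurons labelled mir-17~92-/- (KO, 2 arrays), motor neurons labelled mir-17~92+/+ (WT, 2 arrays), KO-labelled non-motor neurons (1 array) and WT-labelled non-motor neurons (1 array). The mir-17~92 locus encodes a cluster of microRNAs. The labels do not say whether embryos were pooled or whether the replicates came from separate embryos, so p-values measure only the spread between these arrays, which may be technical.

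Notch signalling works between neighbouring cells. Delta ligands on a cell that is becoming a neuron bind Notch on the cell beside it, the receptor is cleaved, and its intracellular part joins the DNA-binding protein RBPJ to switch on Hes genes, whose products repress proneural genes and keep the receiving cell a progenitor. Proneural factors such as Neurog1 and Neurog2 drive cell-cycle exit and neuronal fate and switch on Delta genes and the later factors Neurod1 and Neurod4. In the spinal cord Neurog2 is active in the progenitors that give rise to motor neurons, and Dll3, unlike Dll1, acts mainly inside the cell that makes it and does not activate Notch in neighbours.

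The stretch of 250 bases before the annotated start is shown for a Notch target and for the receptor, whose RefSeq promoters (GRCm38.p6) hold a searched motif, with each match in capitals. Hes5, chr4:154960673-154960922, plus strand, capitals marking the RBPJ core TGGGAA or its reverse complement TTCCCA:
Hes5: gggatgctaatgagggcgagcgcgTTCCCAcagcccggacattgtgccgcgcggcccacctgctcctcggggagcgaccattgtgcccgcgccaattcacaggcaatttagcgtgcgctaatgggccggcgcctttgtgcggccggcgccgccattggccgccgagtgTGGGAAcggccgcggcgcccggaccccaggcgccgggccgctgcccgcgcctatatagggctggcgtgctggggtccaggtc
Notch1, chr2:26503823-26504072, minus strand, capitals marking the N-box CACNAG:
Notch1: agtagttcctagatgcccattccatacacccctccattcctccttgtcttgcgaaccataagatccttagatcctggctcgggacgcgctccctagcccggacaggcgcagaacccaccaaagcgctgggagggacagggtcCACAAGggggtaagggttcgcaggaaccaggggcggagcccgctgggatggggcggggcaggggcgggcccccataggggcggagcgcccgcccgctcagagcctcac
The Hes5 window held 2 RBPJ cores, beginning 226 and 82 bases before the start, and was the only member window with any. Of all 32851 mouse promoter windows of this length, 21.6% held at least 1 RBPJ core and 2.77% held 2 or more. CAGATG, an E-box bound by Neurog and Neurod factors, was in none of the 10 windows of the 8 members that had one, against 14.4% of all windows. CACNAG, the N-box bound by Hes repressors, lay 108 bases before the Notch1 start, was also in the windows of Neurod4, and was in 36.7% of all windows. All motifs were searched on both strands, no matches in a member window overlapped, and a match is a description of the letters only.

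Signals are given as log2 of the processed signal relative to the 75th percentile of the array, so that 0 is the level of a bright probe and each unit is a doubling. A probe entered the tests if 2 or more of the 6 arrays read it well above background, which held for 33263 probes. All arrays lay on 1 slide and were read in 1 scan, where slide row 1 held both KO-labelled motor neuron arrays and row 2 all the rest, so genotype label and slide row cannot be told apart among motor neurons. The 75th percentile of processed signal was 59.9 and 506 on the KO-labelled motor neuron arrays, 48.5 and 64.5 on the WT-labelled ones, 550 on the KO-labelled non-motor-neuron array and 340 on the WT-labelled one, so 3 of the 4 motor neuron arrays were dim. The share of spots well above background ran from 41.0% to 62.3%. The second WT-labelled motor neuron array stood apart, with correlations of 0.736 to 0.807 with the arrays of other groups. Mir17hg, the host transcript of the deleted cluster, was at 4.55 and 4.78 in KO-labelled motor neurons, against -2.38 (not well above background) and 2.73 in WT-labelled ones, and at 4.62 in KO-labelled against -1.23 in WT-labelled non-motor neurons. That is higher in the libraries labelled KO, and where the probe lies relative to the deletion is not given in the sources used here, so every direction below is one between arrays labelled KO and WT.

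Among motor neurons, Dll1 and 1 of 2 probes each of Dll3 and Neurod1 were higher, and Notch1 was lower, in the arrays labelled KO. Dll1 was 5.89-fold higher, the dimmer probe of Dll3 3.80-fold and the dimmer probe of Neurod1 5.93-fold, and the brighter probe of Notch1 was 4.10-fold lower, each past an adjusted p of 0.05 (limma, 2 arrays against 2). The Hes and Neurog genes and the brighter probes of Dll3 and Neurod1 did not pass. Between motor neurons and non-motor neurons no member passed. The largest difference among the tested probes was that of Neurod1, 4.90-fold higher in motor neurons by its brighter probe.

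Of the 12 member probes, 10 (8 of the 9 genes) could be tested. The dimmer Notch1 probe and the Neurod4 probe were above background on too few arrays. In the comparison of KO-labelled with WT-labelled motor neurons, 3 of the 10 probes were higher and 1 lower, where 10.6% of all probes were called higher and 14.2% lower. The median log2 difference was 1.15 over the 10 probes, 8 of them positive, and -0.20 over all probes, 44.9% of them positive. With so few probes the counts describe these genes and not a property of the set. In bulk RNA, fewer cells of a type and less RNA per cell cannot be told apart. Leaving out the second KO-labelled motor neuron array, the only bright motor neuron array, left 0 probes called either way. Leaving out any 1 motor neuron array leaves 1 array on a side and moved the calls over all probes as well. Over these fits Dll1 ran from 2.14 to 2.97 on the log2 scale and the dimmer Neurod1 probe from 2.28 to 2.85. The dimmer Dll3 probe ran from 1.79 to 2.06 and the brighter Notch1 probe from -2.61 to -1.46. With normexp background correction, with no filter on dim probes or with label and cell type as additive terms, 0 member probes passed in limma, and the last 2 of these settings called 0 probes of the whole array (11502 and 11192 at an unadjusted p under 0.05). Under quantile normalization only the dimmer Neurod1 probe passed. An exact permutation test of a single probe cannot go below 0.333 with 2 arrays against 2, or 0.133 with 4 against 2, so calls rest on the spread shared across probes.

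**Figure D1:**
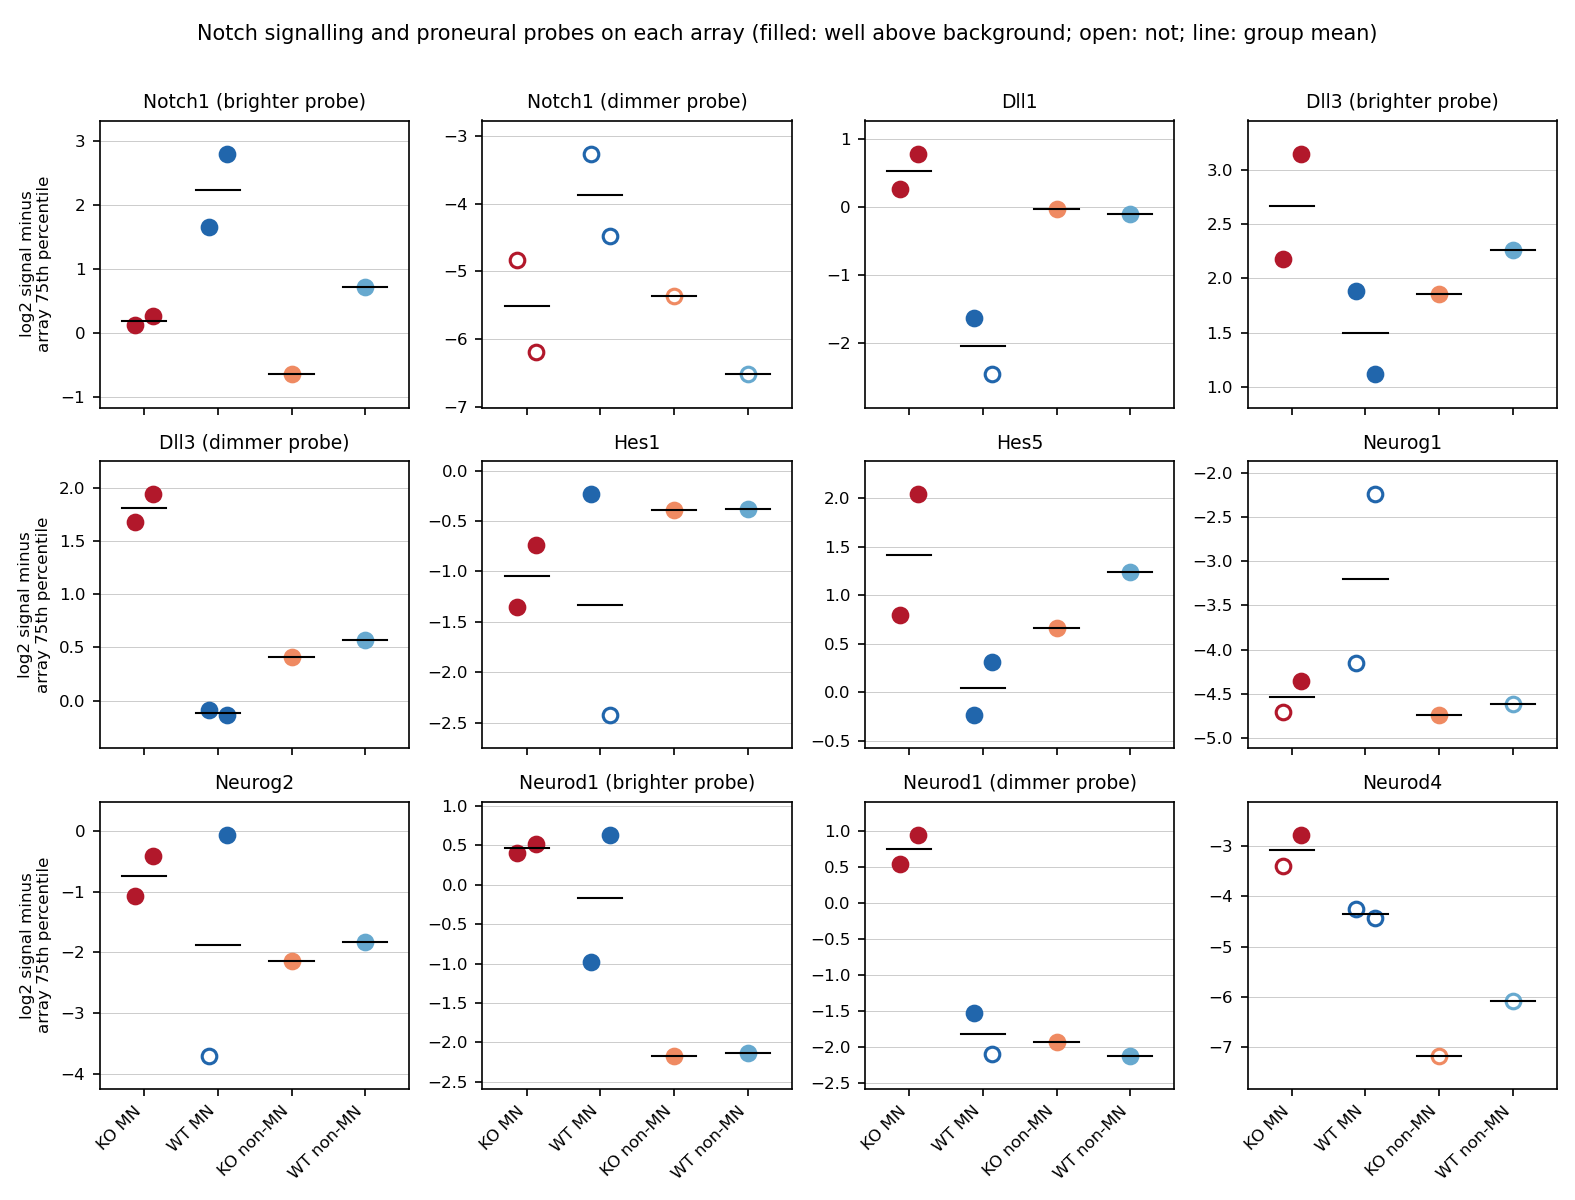
Log2 signal relative to the array's 75th percentile (vertical axis) of each of the 12 member probes on each of the 6 arrays, with KO-labelled motor neurons left of WT-labelled ones and the non-motor-neuron arrays after them; open points are not well above background. Dll1 sits at 0.26 and 0.78 in KO-labelled motor neurons, above the WT-labelled motor neuron arrays at -1.62 and -2.45, and both Neurod1 probes sit near -2 in the non-motor-neuron arrays.

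Notch1, the receptor, was at 0.13 and 0.26 by its brighter probe in KO-labelled motor neurons, against 1.66 and 2.80 in WT-labelled ones. Non-motor neurons were at -0.64 (KO-labelled) and 0.72 (WT-labelled), so the WT-labelled motor neuron arrays were the highest of all and did not overlap the KO-labelled ones, as was so for 39.7% of all probes in this direction. The difference among motor neurons was -2.03 ± 0.57 (SE) on the log2 scale, with an adjusted p of 0.0335 by limma over all probes. Leaving out either KO-labelled array, or the second WT-labelled one, left it short of the threshold (limma adjusted p from 0.107 to 0.143). In non-motor neurons, with 1 array each, the KO-labelled minus WT-labelled value was -1.36. The dimmer Notch1 probe ran from -6.52 to -3.25 and was below background on all 6 arrays, so it was not tested.

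Dll1, the Delta ligand that activates Notch in neighbouring cells, was at 0.26 and 0.78 in KO-labelled motor neurons, against -1.62 and -2.45 in WT-labelled ones, the last not well above background. Non-motor neurons were at -0.03 (KO-labelled) and -0.11 (WT-labelled), between the motor neuron groups. This probe is printed in 10 spots per array, with an SD between spots of 0.05 to 0.10 in KO-labelled motor neurons and 0.29 to 0.30 in WT-labelled ones, where 1 spot of the second array was left out. The log2 difference among motor neurons was 2.56 ± 0.55 (SE), with a limma adjusted p of 0.0172. Without the second KO-labelled array it was 2.30 (limma adjusted p = 0.104), and without the second WT-labelled array it was 2.14 (limma adjusted p = 0.0525). The single non-motor-neuron arrays differed by 0.08.

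Dll3, the divergent Delta gene of newly forming neurons, was at 2.18 and 3.15 by its brighter probe in KO-labelled motor neurons, against 1.89 and 1.12 in WT-labelled ones. Its dimmer probe was at 1.68 and 1.94 in KO-labelled motor neurons, against -0.09 and -0.14 in WT-labelled ones. Both probes were above background on every array, and on both the KO-labelled motor neuron arrays were higher without overlap, as for 29.8% of all probes. The dimmer probe differed by 1.92 ± 0.51 (SE, limma adjusted p = 0.0284) and the brighter by 1.16 ± 0.58 (SE, limma adjusted p = 0.162), so only the dimmer passed. Leaving out the dimmer probe's KO-labelled replicate 1, KO-labelled replicate 2 or WT-labelled replicate 2 gave limma adjusted p of 0.0960, 0.227 and 0.0623. In non-motor neurons the brighter probe was at 1.85 (KO-labelled) and 2.26 (WT-labelled), and the dimmer at 0.41 and 0.57 in the same order.

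Hes5, a repressor switched on by Notch in neural progenitors, was the member with 2 RBPJ cores in its promoter window. It was at 0.79 and 2.04 in KO-labelled motor neurons, against -0.23 and 0.31 in WT-labelled ones. The groups did not overlap, as for Dll3 and for 29.8% of all probes. The difference of 1.38 ± 0.60 (SE) did not pass (limma adjusted p = 0.114). Hes1, a repressor that also answers to other signals, was at -1.35 and -0.74 in KO-labelled motor neurons, against -0.23 and -2.42 in WT-labelled ones, the last not well above background. Its WT-labelled arrays lay on both sides of the KO-labelled ones, and the difference was 0.28 ± 0.73 (SE, limma adjusted p = 0.796). In non-motor neurons Hes1 was at -0.39 (KO-labelled) and -0.38 (WT-labelled), and Hes5 at 0.66 and 1.24 in that order.

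Neurog2, the proneural gene of motor neuron progenitors, was at -1.07 and -0.42 in KO-labelled motor neurons, against -3.70 (not well above background) and -0.06 in WT-labelled ones. The WT-labelled arrays lay on both sides of the KO-labelled ones. Its difference was 1.14 ± 0.996 (SE, limma adjusted p = 0.417), and without the first WT-labelled array it was -0.68, while without the second it was 2.95 and passed (limma adjusted p = 0.0312). Neurog1, its relative in dorsal and sensory lineages, was dim everywhere, at -4.71 and -4.36 in KO-labelled motor neurons against -4.15 and -2.24 in WT-labelled ones. It was well above background only in the second KO-labelled motor neuron array and in KO-labelled non-motor neurons (-4.74, against -4.62 in WT-labelled non-motor neurons). Its difference of -1.34 ± 0.68 (SE, limma adjusted p = 0.166) therefore compares signals near background, and no fold is given. Without the first WT-labelled array the same probe was at -2.30 with a limma adjusted p of 0.0181.

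Neurod1, a neuronal differentiation factor downstream of the proneural genes, was at 0.40 and 0.52 by its brighter probe in KO-labelled motor neurons, against -0.98 and 0.63 in WT-labelled ones. Its dimmer probe was at 0.55 and 0.95 in KO-labelled motor neurons, against -1.53 and -2.10 in WT-labelled ones, the last not well above background. On the dimmer probe the KO-labelled arrays were higher without overlap, as for 29.8% of all probes. On the brighter one the second WT-labelled array was the highest of the 4. The dimmer probe differed by 2.57 ± 0.53 (SE, limma adjusted p = 0.0154) and the brighter by 0.64 ± 0.63 (SE, limma adjusted p = 0.473). Without the second KO-labelled array the dimmer probe's difference was 2.36 (limma adjusted p = 0.0927). Neurod4, which acts beside Neurod1 in early neurons, was at -3.40 and -2.79 in KO-labelled motor neurons, against -4.26 and -4.44 in WT-labelled ones. Only the second KO-labelled motor neuron array was well above background, so Neurod4 was not tested and has no fold against WT-labelled motor neurons.

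Neurod1 was the tested member with the largest level difference between cell types. Its brighter probe was at -2.17 (KO-labelled) and -2.13 (WT-labelled) in non-motor neurons, below all 4 motor neuron arrays, whose lowest value was -0.98. The log2 difference, motor neurons minus non-motor neurons with label as a term, was 2.29 ± 0.55 (SE), with a limma adjusted p of 0.0821. Its dimmer probe was at -1.93 and -2.12 in the same arrays and differed by 1.49 ± 0.59 (SE, limma adjusted p = 0.221), with the second WT-labelled motor neuron array at the non-motor-neuron level. Over 18 other settings the brighter probe ran from 1.85 to 2.69, with a limma adjusted p from 0.0248 to 0.353, and passed in 1 of them. Neurod4 was at -7.16 (KO-labelled) and -6.08 (WT-labelled) in non-motor neurons, not well above background on either array.

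Of the 10 member probes, 0 passed between motor neurons and non-motor neurons in limma, where 0.854% of all probes were called, 0.649% higher and 0.204% lower. At an unadjusted p under 0.05 there were 3 members, the brighter Notch1 probe and both Neurod1 probes, against 19.1% of all probes. Notch1 differed by 1.18 ± 0.50 (SE, limma adjusted p = 0.247), with the KO-labelled motor neurons (0.13 and 0.26) below the WT-labelled non-motor neurons (0.72). Dll1 differed by -0.69 ± 0.62, Hes1 by -0.80 ± 0.62 and Hes5 by -0.22 ± 0.60 (SE), and Neurog1 by 0.81 ± 0.61 and Neurog2 by 0.67 ± 0.87. Dll3 differed by 0.02 ± 0.56 by its brighter and 0.36 ± 0.55 by its dimmer probe. For each of these probes the motor neuron and non-motor-neuron arrays overlapped. Over all probes, the groups did not overlap for 9.42% in the higher and 14.8% in the lower direction, and among the tested member probes only the brighter Neurod1 probe did not overlap.

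**Figure D2:**
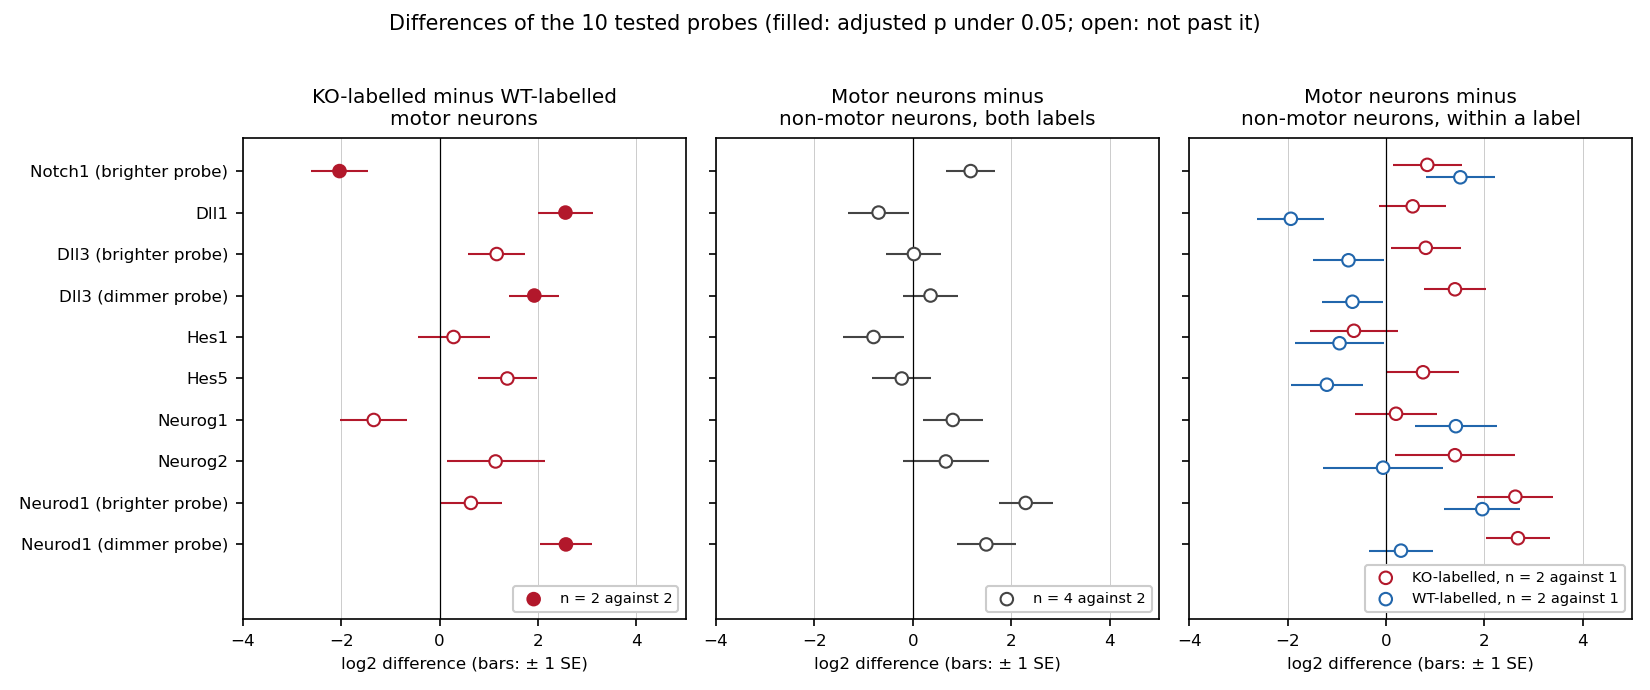
Log2 difference (horizontal axes, bars ± 1 SE) of each tested member probe for KO-labelled minus WT-labelled motor neurons (left), motor neurons minus non-motor neurons over both labels (middle) and the same within each label (right); filled points passed an adjusted p of 0.05 in limma. Dll1 at 2.56, dimmer Neurod1 at 2.57, dimmer Dll3 at 1.92 and Notch1 at -2.03 passed in the left panel and no probe in the others.

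The cell-type difference was next taken within each label. Within KO-labelled cells no member passed, where 0% of all probes were called (limma, 2513 probes at an unadjusted p under 0.05, 2 of them members). Neurod1 differed there by 2.63 ± 0.77 (SE, limma adjusted p = 0.353) and 2.68 ± 0.65 (SE, limma adjusted p = 0.273) on its brighter and dimmer probes. Within WT-labelled cells, whose 3 arrays all lay in slide row 2, no member passed, where 2.55% of all probes were called, 1.04% higher and 1.51% lower, and the count at an unadjusted p under 0.05 was 2 of 10 members and 24.8% of all probes. Dll1 differed there by -1.93 ± 0.68 (SE, limma adjusted p = 0.130). The brighter Neurod1 probe differed there by 1.96 ± 0.77 and, without the first WT-labelled motor neuron array, by 2.76 (limma adjusted p = 0.0403).

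Dll1, Dll3 and Hes5 stood on opposite sides of the non-motor neurons in the arrays of each label. Relative to the non-motor-neuron array of its label, Dll1 was at 0.28 and 0.80 in KO-labelled motor neurons, against -1.52 and -2.35 in WT-labelled ones. The dimmer Dll3 probe was at 1.27 and 1.54 in KO-labelled motor neurons, against -0.66 and -0.70 in WT-labelled ones. Hes5 was at 0.13 and 1.38 in KO-labelled motor neurons, against -1.48 and -0.93 in WT-labelled ones. The same opposite direction was found in 6.66% of all probes. The difference between the labels' cell-type differences passed for none of the 10 probes in limma, where 0% of all probes were called, with 3 members and 8.44% of all probes at an unadjusted p under 0.05. It was 2.48 ± 0.96 for Dll1 (SE, limma adjusted p = 0.572) and 2.38 ± 0.92 for the dimmer Neurod1 probe (SE, limma adjusted p = 0.572).

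Among other genes of the pathway, a list of 37, 36 were found on the array and 45 probes of 34 genes were tested. Between KO-labelled and WT-labelled motor neurons 4 of these 45 probes were higher and 4 lower, where all probes had 10.6% higher and 14.2% lower. The median difference was 0.49, with 27 of the 45 positive, against -0.20 and 44.9% positive over all probes. The higher ones were Notch4, a receptor best known from vessels, by 2.40 ± 0.53 (SE, limma adjusted p = 0.0176), Hey2, a Hes relative, by 2.36 ± 0.53, the coactivator Maml2 by 2.29 ± 0.52 and Dlk1, a Delta-like protein without the domain of the classical ligands, by 2.18 ± 0.56. Hey2 and Maml2 were below background on both WT-labelled motor neuron arrays, which leaves at least 1.15-fold and at least 1.05-fold. Notch4 was at 0.44 and 0.68 in KO-labelled motor neurons, against -1.55 and -2.14 in WT-labelled ones, the last not well above background.

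The lower ones were Ncstn, a subunit of the gamma-secretase that cleaves Notch, by -2.55 ± 0.62, the coactivator Maml3 by -2.41 ± 0.58, the DNA-binding partner Rbpj by -2.01 ± 0.63 (limma adjusted p = 0.0449) and Fbxw7, which marks the active receptor for breakdown, by -1.65 ± 0.53 (SE). The Ncstn probe was not well above background on 1 array of each label, so its size is uncertain. The other Rbpj probe was at 0.94 and did not pass, so the probes of this gene disagreed in sign. The other probes of Maml3 and Fbxw7 were at -0.57 and -0.83 and did not pass, and the other Dlk1 probe was at 0.97. Between motor neurons and non-motor neurons 0 of the 45 probes passed in limma, where 0.854% of all probes were called. At an unadjusted p under 0.05 there were 9 of the 45, against 19.1% of all probes. The largest differences were Dlk1 at -2.62 ± 0.54 (SE, limma adjusted p = 0.0566), the receptor Notch2 at -2.19 ± 0.49 (SE, limma adjusted p = 0.0681), the gamma-secretase subunit Aph1a at -1.77 ± 0.65 and Lfng, a glycosyltransferase that tunes Notch for its ligands, at -1.51 ± 0.48 (SE). The Aph1a and Lfng probes were not well above background on either WT-labelled motor neuron array, so these sizes rest partly on unmeasured signals. Notch2 was at 1.18 and 1.66 in KO-labelled and 0.55 and -0.20 in WT-labelled motor neurons, below 3.23 (KO-labelled) and 2.74 (WT-labelled) in non-motor neurons. The other Aph1a probe was at 0.11, so that gene has no shared direction.

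Among 26 other proneural and neuronal bHLH genes, their partners and inhibitors and genes of neuronal commitment, 32 probes of 25 genes were tested. Between KO-labelled and WT-labelled motor neurons 6 were higher and 1 lower, where all probes had 10.6% higher and 14.2% lower. The median difference was 0.49, with 21 of 32 positive, against -0.20 and 44.9% positive over all probes. The Id genes encode inhibitors that bind the common bHLH partners and hold back proneural factors. They gave 3 of the higher calls, Id4 by 2.71 ± 0.52 (SE, limma adjusted p = 0.0130), Id2 by 2.48 ± 0.63 and Id3 by 2.20 ± 0.64. Id1 was at -0.10 ± 0.74 (SE, limma adjusted p = 0.934), its WT-labelled motor neuron arrays on both sides of the KO-labelled ones. Id4 was at 1.40 and 1.91 in KO-labelled motor neurons, against -1.01 and -1.10 in WT-labelled ones, and at 0.56 and 1.07 in KO-labelled and WT-labelled non-motor neurons. Insm1, a zinc-finger gene of newly committed neurons, was higher by 2.88 ± 0.62 and Olig1, a bHLH gene of the Olig progenitor family, by 2.39 ± 0.51. Olig1 was below background on both WT-labelled motor neuron arrays, which leaves at least 1.30-fold. Tcf12, a common partner of proneural factors, was 3.49 ± 0.79 higher by one probe and -1.63 ± 0.51 (SE, limma adjusted p = 0.0464) by the other, so no direction is given for the gene.

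**Figure D3:**
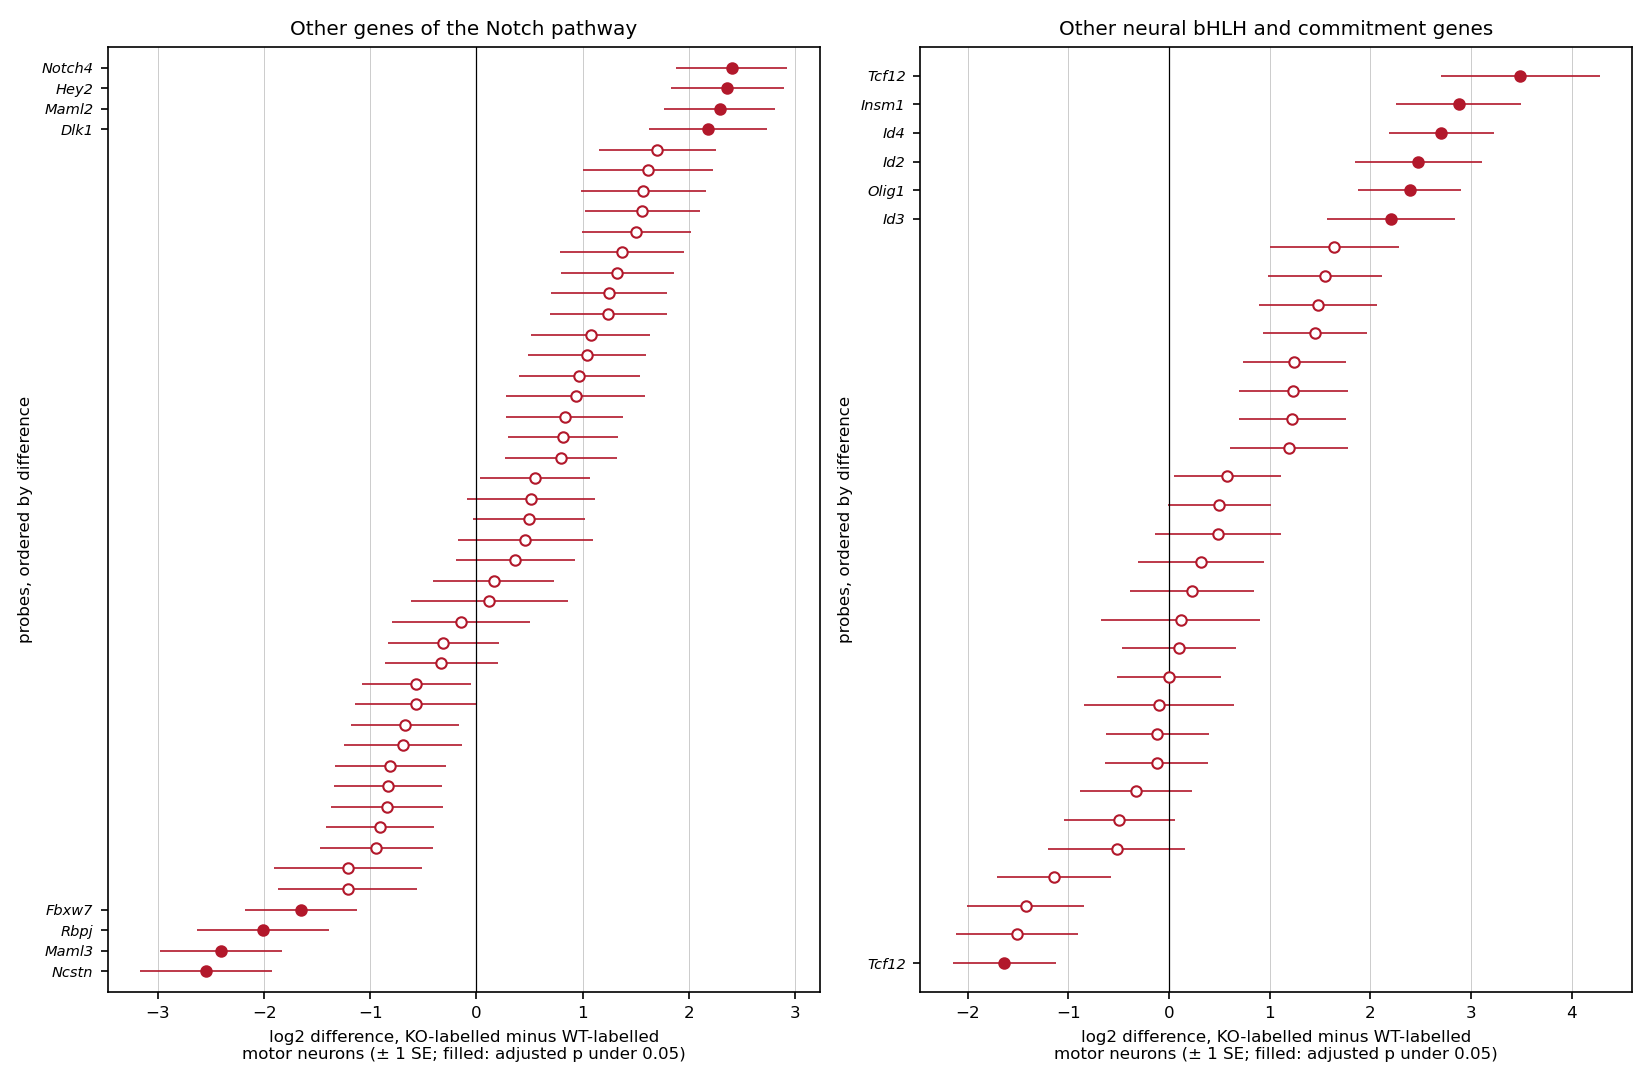
Log2 difference of KO-labelled minus WT-labelled motor neurons (horizontal axis, bars ± 1 SE) for the 45 tested probes of the other Notch pathway genes (left) and the 32 of the other neural bHLH and commitment genes (right), in order of their difference; filled, named points passed an adjusted p of 0.05 in limma and open points did not. The Notch pathway probes run down to Ncstn at -2.55 and up to Notch4 at 2.40, and Tcf12 stands at both ends of the other list, at -1.63 and 3.49.

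Between motor neurons and non-motor neurons, 0.649% of all probes were called higher and 0.204% lower. Of the 32 bHLH list probes, 1 was higher and 0 lower. It was Bhlhe22, a bHLH repressor of postmitotic neurons, at 0.12 and 0.53 in KO-labelled and -1.20 and -0.61 in WT-labelled motor neurons, above -2.51 (KO-labelled) and -3.03 (WT-labelled) in non-motor neurons. Its difference was 2.48 ± 0.47 (SE, limma adjusted p = 0.0495). Leaving out the first KO-labelled motor neuron array gave 0 higher calls in this list, where 100 of all probes were called higher. Leaving out the second gave 2, where 1151 of all probes were. Without either WT-labelled motor neuron array 0 probes of the whole array were called (limma, 4684 and 5814 at an unadjusted p under 0.05). Those fits therefore say nothing about this list. Neurog3 was next at 2.11 ± 0.44 (SE, limma adjusted p = 0.0613). Id3 was at -2.57 ± 0.65 (SE, limma adjusted p = 0.0933) and Tcf12 at -2.17 ± 0.83 by one probe and 0.31 by the other.

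Markers of the cells in each fraction were set beside these values. Between motor neurons and non-motor neurons, 0.649% of all probes were called higher and 0.204% lower. Of the motor neuron markers, 4 of 9 probes were higher in motor neurons than in non-motor neurons in limma, with Lhx4 at 3.88, the acetylcholine transporter gene Slc18a3 at 3.48 and Chat, the enzyme that makes acetylcholine, at 3.17, and all 9 were positive. No probe could be matched to Mnx1, which encodes Hb9. The mean level of the motor neuron markers was 0.93 and 1.03 in KO-labelled motor neurons, -0.09 and -0.62 in WT-labelled ones, -1.76 in KO-labelled and -2.19 in WT-labelled non-motor neurons. In the same comparison the sensory neuron and neural crest list had 2 of 8 probes higher, Foxd3 at 4.29 ± 0.45 (SE, limma adjusted p = 0.0117) and Sox10 at 3.93 ± 0.53, both neural crest genes. The interneuron list had 1 of 13 higher, Evx1 at 3.84 ± 0.57, and the red cell list 5 of 7 lower, with the globin gene Hbb-b2 at -4.50 ± 0.57 (SE). Of the markers of postmitotic neurons, all 12 probes were positive and 0 passed in limma, with 9 at an unadjusted p under 0.05. Of the cycling-cell markers 0 of 12 passed, with 2 at an unadjusted p under 0.05. Over all probes in this comparison, 19.1% were at an unadjusted p under 0.05.

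Between KO-labelled and WT-labelled motor neurons, several markers of other cells were also higher in the arrays labelled KO. Over all probes in this comparison, 10.6% were called higher and 14.2% lower. All 7 microglia and macrophage probes were higher, with C1qc at 2.85 on the log2 scale. Tyrobp and Mrc1 were not well above background on either WT-labelled motor neuron array, which leaves at least 12.2-fold and at least 9.35-fold. They were well above background on 7 and 7 of 7 probes in KO-labelled motor neurons, against 3 and 3 in WT-labelled ones, and their summed level, in multiples of the array's 75th percentile, was 15.5 and 16.9 in the KO-labelled arrays against 3.64 and 2.30 in the WT-labelled arrays. Of the neural progenitor probes 3 of 10 were higher and 0 lower, with Fabp7 at 2.98, Sox2 at 2.17 and Slc1a3 at 2.03. Of the 10, 7 were positive, while Nes was at -0.98, Pax6 at -0.63 and Nkx6-1 at -0.33, none of them past the threshold. The summed level of the progenitor list was 117 and 134 in KO-labelled motor neurons, against 65.4 and 34.0 in WT-labelled ones. In the KO-labelled arrays that sum was mostly Vim (6.01 and 6.24) and Fabp7 (5.21 and 5.36), so it is not a level of the whole list. Vim did not pass (limma adjusted p = 0.0549). The motor neuron list had 4 of 9 higher and 0 lower, with Prph at 4.44 and Isl1 at 2.57, and the cycling list 2 higher and 1 lower of 12. The red cell list had 2 of 7 higher, the sensory and neural crest list 3 of 8 and the endothelial list 2 of 6, with none lower. The interneuron list had 1 higher and 3 lower of 13, and the postmitotic list 1 higher and 2 lower of 12. The mesenchyme list had 0 of 6 called in limma. At an unadjusted p under 0.05 it had 2 of 6, against 41.4% of all probes. The part of these cells, of signal strength and of slide row in the member differences was not tested.

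**Figure D4:**
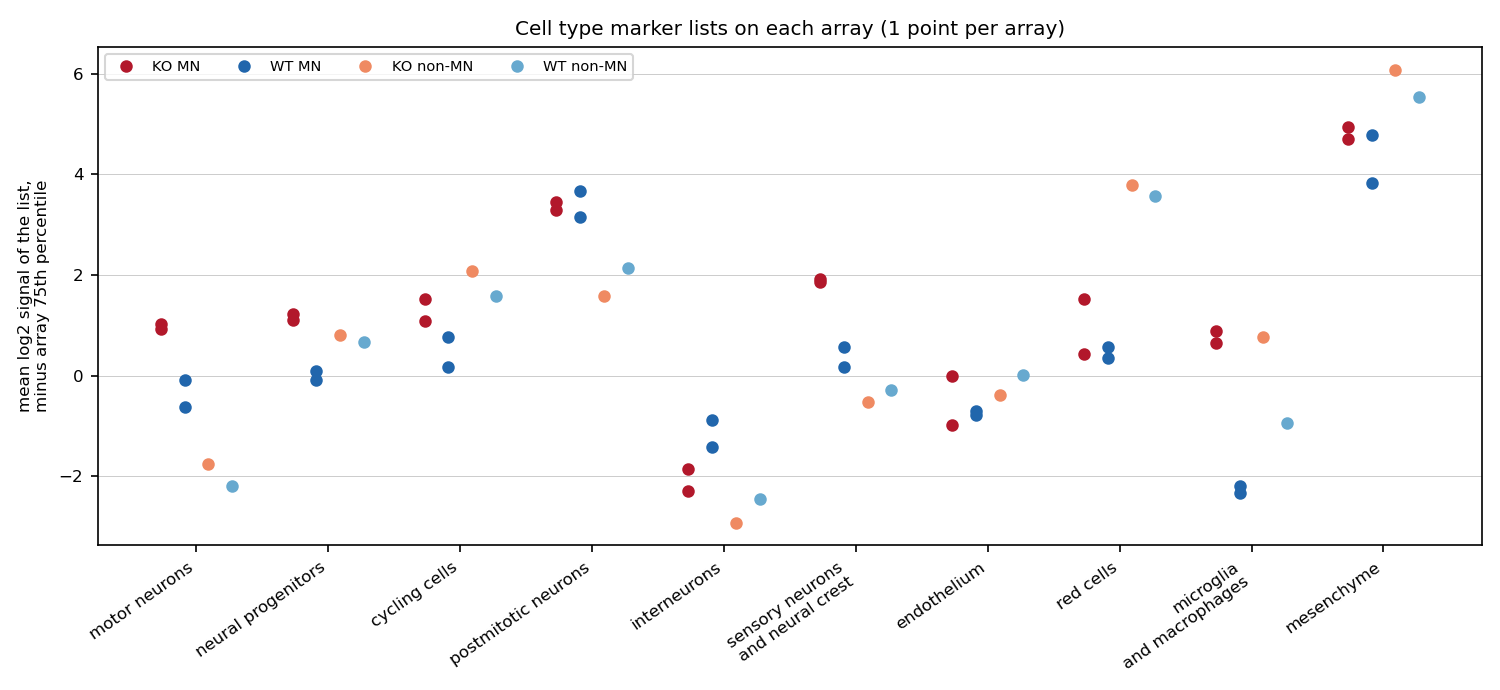
Mean log2 level of each marker list (vertical axis, relative to the array's 75th percentile) on each of the 6 arrays, KO-labelled motor neurons left of WT-labelled ones. The microglia and macrophage list is at 0.65 and 0.89 in KO-labelled motor neurons, against -2.18 and -2.33 in WT-labelled ones, and at 0.78 and -0.95 in KO-labelled and WT-labelled non-motor neurons.

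Over the 6 arrays, the genes most like Notch1 in pattern among 10185 named genes above background on every array were Cmya5, Msx3 and Trpm1, with Pearson r of 0.998, 0.996 and 0.995. Among those most like Hes5 were 2610524H06Rik and Mycbp2, with r of 0.985 and 0.952. The points are the same 6 arrays for every gene, which share their signal strength and scaling, so r is a description only. Dll1 and Neurog2 were above background on 5 of 6 arrays and were left out of this search.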

How the data were processed

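Sorted E12.5 spinal cord cells were profiled with Cy3-labelled RNA on 6 Agilent arrays of 1 colour. Per the file headers, the authors quantified spots in Feature Extraction 10.5.1.1 (9.1 per the submitters' processing notes). The deposited processed signal is an intensity already corrected for background within each array and not scaled between arrays. The deposited files also hold flags of other kinds (above background, saturated, irregular), and no spot was saturated. The authors' deposited value table is in log2, and 100% of its values matched the values used here within 0.01.

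Processed signals were averaged in log2 over unflagged spots per probe, minus the array's 75th percentile. Of 55669 probes with a value on all arrays, 26295 had 1 gene symbol through a RefSeq accession (GRCm38.p6), 0 several and 29374 none. The headers name mm9, so no probe coordinates are given. limma 3.58.1 (R 4.3.3; lmFit, eBayes) was fitted to all 33263 probes above background on at least 2 arrays, with Benjamini-Hochberg adjustment and a threshold of 0.05. Motor neurons against non-motor neurons used label as a term (3 residual degrees of freedom), and other comparisons a model of 4 group means (2 residual degrees of freedom, the single non-motor-neuron arrays assumed to vary like the pairs). Steps were tested on simulated data. Non-motor neurons of the 2 labels, 1 array each, were compared as values. A bound for a group below background sets the brighter mean against the lowest signal called well above background, or the dim probe's own if higher, averaged over arrays in log2.

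Members and lists were chosen with earlier results of these data known. Named genes were the members, the list genes past the threshold (up to 8 per list and comparison, or the 4 largest where fewer than 4 passed), up to 3 per marker list and the 3 genes most like Notch1 and Hes5. Some items these rules take are not reported here. Alternatives covered scaling, normexp background (offset 50, on median signals as no mean signal was used), filters, probe choice, model, spike-in signal, blocks and left-out arrays. Same-numbered motor neuron replicates of the different labels did not deviate together (correlation -0.0964 over 33263 probes). This correlation does not cover pairing of motor neurons with non-motor neurons.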

Additional observations from a re-analysis of the deposited data

Results flagged for a closer look

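Dll1, both Dll3 probes and Hes5 were singled out because every KO-labelled motor neuron array lay above the non-motor-neuron array of its label and every WT-labelled one below, as did 6.66% of all probes. The difference between the labels' cell-type differences, in log2 units from limma, was 2.48 ± 0.96 (SE) for Dll1, with an adjusted p of 0.572. It was 1.57 ± 1.01 for the brighter Dll3 probe, with a limma adjusted p of 0.674, from 0.32 and 1.30 in KO-labelled cells against -0.38 and -1.15 in WT-labelled cells. It was 2.08 ± 0.88 for the dimmer Dll3 probe, with a limma adjusted p of 0.586, and 1.95 ± 1.03 for Hes5, with a limma adjusted p of 0.622. None passed the threshold. Each label's differences share 1 non-motor-neuron array.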

How the results depend on the processing

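Members' counts for KO-labelled against WT-labelled motor neurons (3 higher, 1 lower) were 1 and 0 under quantile normalization and 0 and 0 under normexp background, without a filter or in the additive model. Higher counts were 1 with probes above background on all arrays or the brightest probe per gene. Leaving out 1 array kept the sign of each called member probe. It moved the calls over all probes as well, so the left-out counts of both lists do not describe the lists alone. In the Notch list (4 and 4), median scaling gave 7 higher, quantile normalization 2 and 0, normexp 2 and 0, no filter and the additive model 0 and 0, the brightest probe 1 lower, and leaving out 1 array 0 to 10 higher and 0 to 6 lower. In the bHLH list (6 and 1), quantile normalization gave 2 and 0, normexp 3 and 0, no filter and the additive model 0 and 0, median scaling, the replicate block and the spike-in covariate 0 lower, all arrays 3 lower, and leaving out 1 array 1 to 7 higher and 0 to 4 lower.

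Between motor neurons and non-motor neurons, members had 1 higher with probes above background on all arrays, against 0. That setting called 654 higher and 182 lower of 19071 probes, against 216 and 68 of 33263 in the main fit. Over all probes, median scaling called 302 higher and 119 lower and trend and robust 506 and 218. The brightest probe per gene called 230 and 112 of 14917. Lower counts in the Notch list, against 0, were 1 under median scaling, normexp and the brightest probe, 2 on all arrays, without both KO-labelled motor neuron arrays (chosen after seeing the data) and with a block for the description tag (unexplained in the labels, it links replicate 1 of a label's motor neurons to that label's GFP-off array), 3 with trend and robust, and 0 to 2 leaving out 1 array. The bHLH list's higher count of 1 was 0 under quantile normalization, normexp, no filter, without both WT-labelled or both KO-labelled motor neuron arrays and with the replicate block, 2 on all arrays, the brightest probe or trend and robust, 3 with the tag block, and 0 to 2 leaving out 1 array. Its lower count of 0 was 1 on all arrays, with trend and robust and with either block, 2 without both KO-labelled arrays, and 0 to 1 leaving out 1 array. Within WT-labelled cells, the brighter Neurod1 probe ran from 1.15 to 2.76 over 12 other settings.

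Signs turned for motor neurons against non-motor neurons as follows. Dll1 was 0.54 and Hes5 0.75 without both WT-labelled motor neuron arrays. Brighter Dll3 was -0.30 under normexp, -0.76 without both KO-labelled arrays and -0.027 with either block, and dimmer Dll3 -0.68 without both KO-labelled arrays. Neurog2 was -0.058 without both KO-labelled arrays and -0.40 with either block. Leaving out 1 array, Dll1 ran from -1.93 to 0.54, brighter Dll3 from -0.76 to 0.81, dimmer Dll3 from -0.68 to 1.40, Hes5 from -1.20 to 0.75 and Neurog2 from -0.058 to 1.56. Under normexp, Hes1 was -0.15 between labels and -0.15 for the difference of differences, and Neurog2 0.92 within WT. Neurog1 was -0.15 within KO under quantile normalization. Leaving out 1 array gave, between labels, Hes1 -0.81 to 1.38, Neurog2 -0.68 to 2.95 and brighter Neurod1 -0.17 to 1.44, within WT, Hes1 -2.04 to 0.15 and Neurog2 -1.88 to 1.76, and for the difference of differences, Hes1 -0.80 to 1.39, Neurog2 -0.36 to 3.28 and brighter Neurod1 -0.13 to 1.48. The causes were not tested.

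Over all probes, the 3524 higher and 4734 lower calls between labels were 1578 and 392 under quantile normalization and 903 and 429 under normexp, 951 and 1155 without the second KO-labelled motor neuron array, and 0 and 0 with no filter or in the additive model (limma, 11502 and 11192 at an unadjusted p under 0.05). Under the main setting, quantile normalization and normexp the median of all probes was -0.20, 0.05 and -0.45. Between cell types, 216 higher and 68 lower were 680 and 371 with the replicate block, 1360 and 843 with the tag block, 41 and 34 under normexp, 0 and 0 under quantile normalization or no filter (limma, 5625 and 17366 at an unadjusted p under 0.05), and 0 to 1151 and 0 to 651 leaving out 1 array. The replicate block changed no member call. The deviations of same-numbered motor neuron arrays (correlation -0.0964 over 33263 probes) gave no sign that replicate numbers pair motor neurons across labels. Whether motor neuron arrays pair with the non-motor-neuron array of their label was not tested, and the main fit assumes no such pairing. Signal limits Neurog1, Neurod4 and the dimmer Notch1 probe most.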
